A study of Mus musculus with 20 samples.

Results

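Cytokine and interferon receptors sit at the plasma membrane as pairs or trios of chains, and 10 genes for such chains were followed here in mouse bone marrow-derived dendritic cells (BMDCs): Ifnar1, Ifnar2, Ifngr1, Ifngr2, Il10ra, Il4ra, Il2rg, Il6ra, Il6st and Il17ra. The members were the rows of the count table that carried one of these symbols, 10 of 24421 genes, and all 10 were among the 12465 genes abundant enough to be tested. The study asked how I-BET151 (iBET), an inhibitor of the BET bromodomain proteins that read acetylated histones, altered the response of mononuclear phagocytes to IgG immune complexes. Bone marrow of 5 mice (A to E) was grown for 8 days in GM-CSF at 40 ng/mL, and cells of each mouse were split over all 4 groups, giving 20 libraries. Every group was kept for 4 hours with ovalbumin, either alone (Ova) or opsonised with rabbit anti-ovalbumin IgG (IC), and with either iBET at 3.3 μM or DMSO, so the groups of 5 libraries were called DMSO Ova and DMSO IC for the solvent controls and iBET Ova and iBET IC for the treated cells. The labels give 5% DMSO for the control groups and name no solvent for the iBET groups. Strain, genotype, sex and age of the mice are not given in the labels, which name no altered allele in any group.

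Type I interferon is bound by IFNAR1 and IFNAR2 together, and interferon gamma by IFNGR1 with the signalling chain IFNGR2. IL-10 uses IL10RA with IL10RB, IL-6 uses IL6RA with the shared chain gp130 (Il6st), IL-4 uses IL4RA with either the common gamma chain (Il2rg) or IL13RA1, and IL-17A uses IL17RA with IL17RC. Except for the IL-17 receptor, which works through the adaptor ACT1, these receptors pass their signal to Janus kinases (JAK) and STAT transcription factors, and in dendritic cells they tune maturation, antigen presentation and cytokine output.

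Library totals ran from 16447491 to 29245150 assigned reads with a median of 21764663. Dendritic cell markers were present in every library, with all 9 of 9 list members tested and a summed level of 4574 to 9645 CPM (reads of a gene divided by the library's scaled total in units of 1e+06 reads). Most of that sum was Cd74 and Itgax (means of 3221 and 2104 CPM), while Flt3 had a mean of 1.55 CPM. All 9 macrophage or monocyte markers were tested too, at 9999 to 20384 CPM, most of it Lyz2 (mean 13379 CPM). The cultures thus carried transcripts of both kinds of phagocyte. The T cell list summed to 5.39 to 8.77 CPM in DMSO Ova, 8.81 to 13.0 in DMSO IC, 0.450 to 1.17 in iBET Ova and 0.667 to 1.74 in iBET IC. Of its 8 genes analysed, Cd28 held 1898 reads over the 20 libraries, against 4 for Cd3e and 8 for Cd3d, the defining chains, so those were at or near 0. B cell, NK cell and stromal lists stayed at or below 1.54 CPM in every library, with Klra8 and Col3a1 at 0 throughout. Neutrophil genes summed to 429 to 915 CPM, nearly all of it Mmp8, eosinophil genes to 38.9 to 135.6 CPM, and mast cell or basophil genes to 7.77 to 34.6 CPM, most of it Kit. Trac and Ly6g were not analysed here.

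Mice A and B stood apart from mice C, D and E, and this touched 1 member in particular. Ifnar2 lay at 83.5 to 83.8 CPM in the DMSO Ova cells of mice A and B but at 63.5 to 65.0 CPM in those of mice C, D and E. The 2 sets of mice did not overlap for Ifnar2 within any of the 4 groups. For that reason the members are also described below within each set or with the mouse as a block in the fit. This was done mainly where it changed the call. The block compares each mouse with itself. What separated the mice is not given in the labels.

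With Ova, iBET changed 6 of the 10 chains, raising 2 and lowering 4, where 56.6% of all tested genes were called (27.7% higher, 28.9% lower). Ifnar1 and Il17ra rose, and Ifngr2, Il10ra, Il6ra and Il6st fell. With IC, iBET raised the same 2 chains and lowered Ifngr2, Il10ra and Il6st, 5 of 10 calls against 56.1% of all tested genes (27.1% higher, 29.0% lower). The share of chains called was therefore near that of the table as a whole in both comparisons. In bulk samples such as these, fewer cells of a type and less RNA per cell cannot be told apart. IC against Ova changed 6 of 10 chains in DMSO, with Ifnar1, Ifngr2 and Il2rg higher and Ifngr1, Il6ra and Il17ra lower, where 20.3% of all genes were called (9.59% higher, 10.7% lower), a gap from which a list of 10 chosen with earlier results known allows no more to be read. In iBET, IC changed 3 of 10, with Ifnar1 and Ifngr2 higher and Il10ra lower, beside 11.8% of all genes (5.19% higher, 6.63% lower). A call is an adjusted p under 0.05 (Benjamini-Hochberg, over all 12465 genes) in the quasi-likelihood test of edgeR. The 4 comparisons share libraries, so each is read on its own.

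The median log2 fold change of the 10 chains was -0.19 with iBET in Ova and -0.03 in IC, beside -0.003 and -0.005 over all tested genes, and -0.17 for IC in DMSO and -0.12 for IC in iBET, beside -0.02 and -0.01. Irrespective of sign, the median change of the chains was 0.32 and 0.25 with iBET (all genes 0.36 in both) and 0.20 and 0.21 with IC (all genes 0.18 and 0.15). With iBET, 27.6% of tested genes in Ova and 18.2% in IC had a change exceeding that of the most changed chain. With the mouse as a block, the chains called were 10 in Ova (4 higher, 6 lower) and 9 in IC (4 higher, 5 lower) for iBET, beside 68.7% and 68.0% of all genes. For IC they were 8 in DMSO (3 higher, 5 lower) and 8 in iBET (4 higher, 4 lower), beside 38.1% and 28.9%. Scaling by library totals alone moved the median change of all genes by -0.11 in both IC comparisons, and the chains called by IC in DMSO were then 1 higher and 5 lower, beside 4.67% and 20.8% of all genes. Under that scaling iBET raised 2 chains and lowered 6 in Ova (24.2% and 32.1% of all genes) and raised 1 and lowered 4 in IC (23.9% and 32.3%), and IC raised 2 and lowered 3 in iBET (2.51% and 16.3%).

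**Figure D1:**
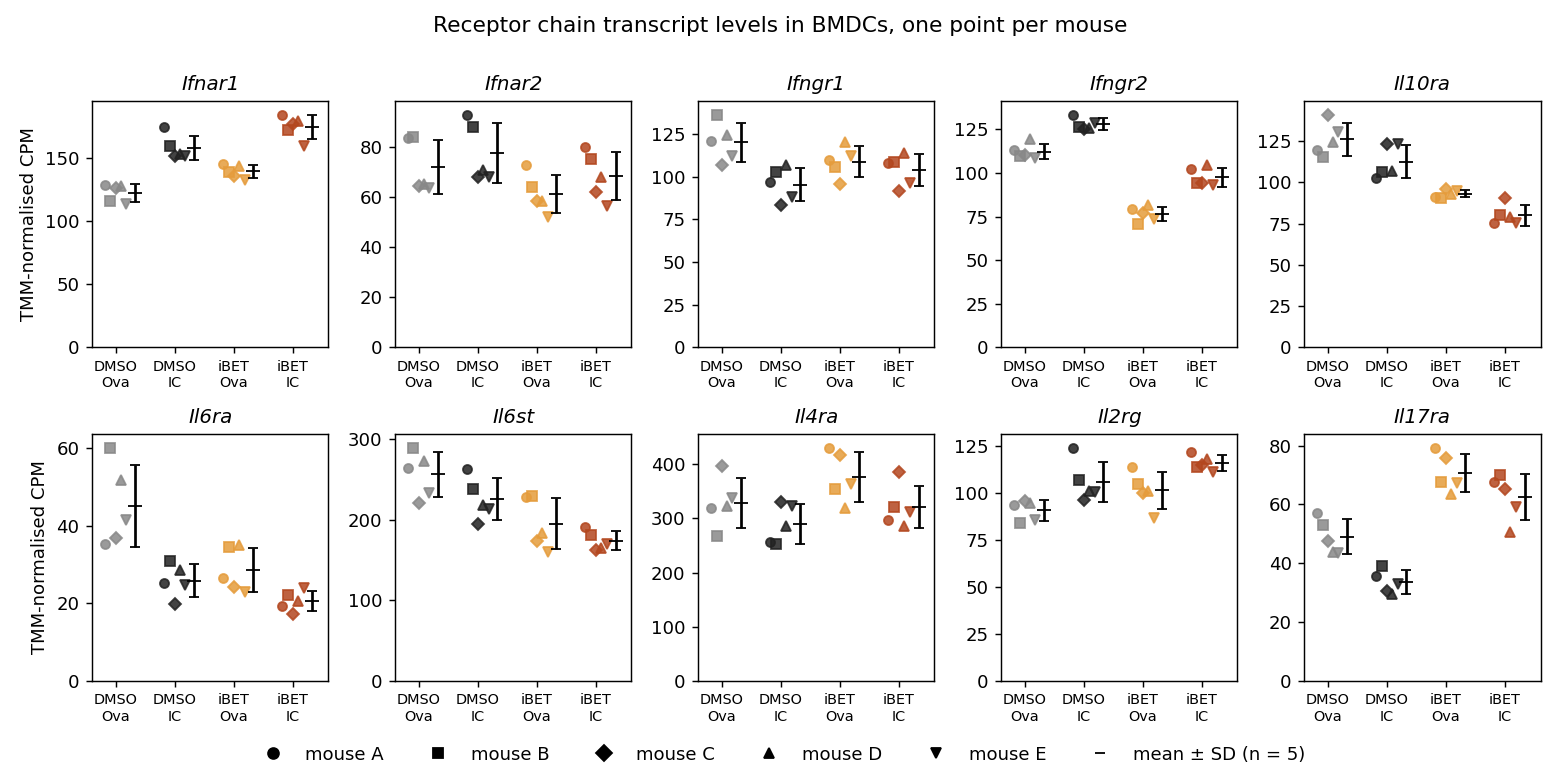
Transcript level of each receptor chain in CPM (linear axis from 0) by group, with 1 point per mouse and the mean ± SD of 5 mice. Ifngr2 runs from 128 CPM in DMSO IC down to 76.5 in iBET Ova with no overlap between neighbouring groups, while the Ifnar2 groups overlap and mice A and B lie above the others.

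**Figure D2:**
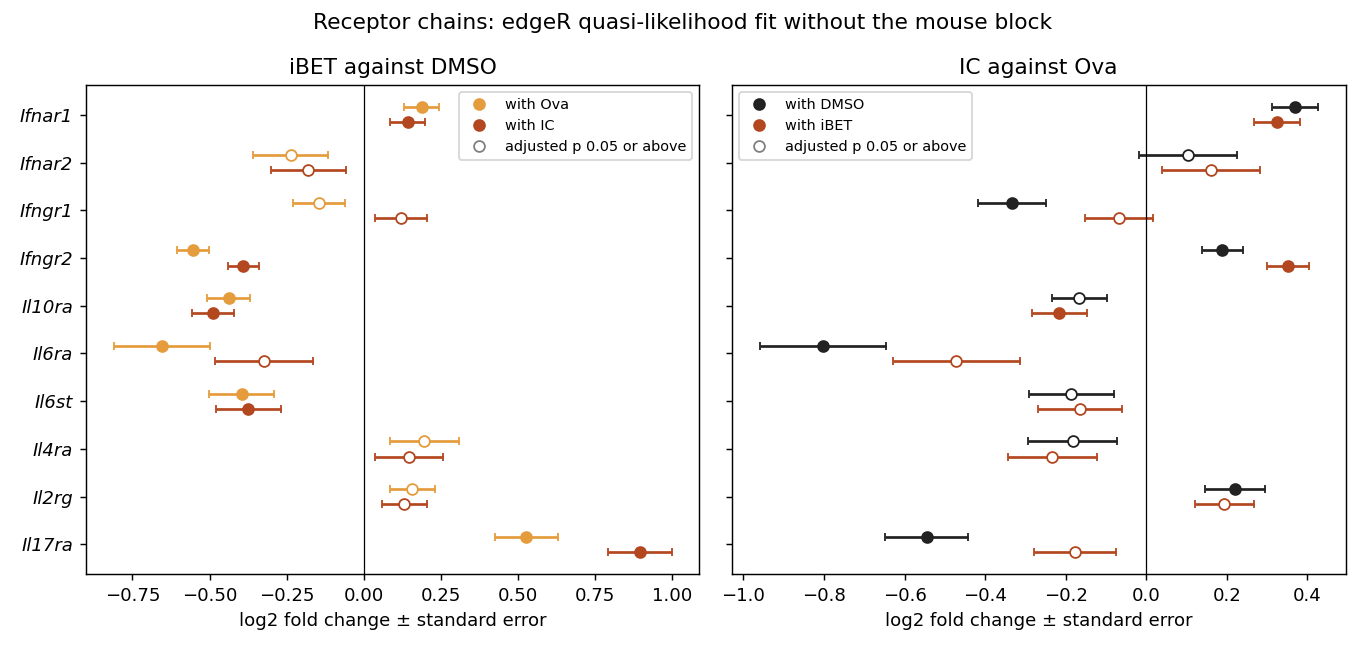
Log2 fold change ± standard error of each chain in the 4 comparisons, from the fit of all 20 libraries without the mouse as a block. Il17ra is the chain that rose furthest with iBET (0.53 in Ova, 0.90 in IC), and Il6ra the one that fell furthest with IC in DMSO (-0.80).

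Ifnar1 encodes the chain of the type I interferon receptor that carries the kinase TYK2. In mice A to E it was at 128, 116, 126, 128 and 113 CPM in DMSO Ova, and at 174, 159, 152, 153 and 152 CPM in DMSO IC. The iBET Ova cells held 145, 139, 136, 144 and 133 CPM, and the iBET IC cells 185, 173, 177, 179 and 159.6 CPM. The order of the means was DMSO Ova (122 ± 7.08 CPM, SD, n = 5), iBET Ova (139 ± 5.32), DMSO IC (158 ± 9.65) and iBET IC (175 ± 9.44), and only the last 2 groups overlapped in range. IC raised Ifnar1 by 0.37 on the log2 scale in DMSO (SE 0.0565, 1.29-fold, adjusted p = 0.000156) and by 0.32 in iBET (SE 0.0565, 1.25-fold, adjusted p = 0.000937), in 5 of 5 mice each. The rise with iBET was 0.19 in Ova (SE 0.0565, 1.14-fold, adjusted p = 0.00776) and 0.14 in IC (SE 0.0564, 1.10-fold, adjusted p = 0.0360), again in 5 of 5 mice. The rise in IC was not called without mouse C (adjusted p = 0.116) or without mouse D (0.154), nor under scaling by library totals alone (0.149). In mice A and B alone the iBET differences were 0.21 and 0.12 and did not pass (adjusted p = 0.0996 and 0.357), nor did IC in iBET at 0.34 (0.0953). In the other 3 mice the iBET differences were 0.22 (0.0125) and 0.20 (0.0179), and IC in iBET was 0.32 (0.00843).

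Ifnar2, the chain that gives type I interferon its high-affinity binding, was lower with iBET in every mouse, while its level also differed between mice. Its levels in mice A to E were 83.5, 83.8, 64.1, 65.0 and 63.5 CPM in DMSO Ova and 72.7, 64.0, 58.3, 58.3 and 52.1 CPM in iBET Ova. With IC they were 92.8, 87.8, 67.9, 70.5 and 67.9 CPM in DMSO and 80.0, 75.0, 62.0, 67.9 and 56.4 CPM in iBET. Neither pair of groups was separated, because mice A and B in iBET lay within or above the range of mice C, D and E in DMSO. The log2 difference was -0.24 in Ova (SE 0.122, adjusted p = 0.105) and -0.18 in IC (SE 0.122, adjusted p = 0.219). With the mouse as a block both passed, at adjusted p = 0.000181 and 0.00193, and over all alternatives the values ran from 1.06e-05 to 0.314 and from 0.000581 to 0.384. The iBET difference in Ova was -0.30 in mice A and B (adjusted p = 0.0302), against -0.14 in the other 3 mice (0.101). IC differed from Ova by 0.10 in DMSO (adjusted p = 0.604) and by 0.16 in iBET (0.447), and the latter passed with the block (0.0145, range over alternatives 0.00669 to 0.790).

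Ifngr1, the ligand-binding chain for interferon gamma, fell with IC when no iBET was present. In mice A to E it stood at 121, 137, 107, 125 and 112 CPM in DMSO Ova and at 96.8, 103, 83.4, 107 and 88.0 CPM in DMSO IC. The iBET Ova values were 109.8, 106, 96.0, 121 and 112 CPM and the iBET IC values 108, 109, 91.7, 114 and 96.6 CPM, 2 groups that overlapped widely. The highest DMSO IC value, in mouse D, came just under the lowest DMSO Ova value, in mouse C, and the log2 difference was -0.33 (SE 0.0846, 1.26-fold lower, adjusted p = 0.00911). It did not pass in either set of mice alone, with -0.38 in mice A and B (adjusted p = 0.0553) and -0.29 in mice C, D and E (0.0745). In iBET the IC difference was -0.07 (SE 0.0846, adjusted p = 0.685). iBET against DMSO gave -0.14 in Ova (SE 0.0845, adjusted p = 0.153) and 0.12 in IC (SE 0.0846, adjusted p = 0.230). These passed with the mouse block, at 0.0144 and 0.0319, with ranges over the alternatives of 0.0136 to 0.909 and 0.0210 to 0.464. The iBET difference in Ova was -0.26 in mice A and B (adjusted p = 0.0436) and -0.02 in mice C, D and E.

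Ifngr2, the chain that brings JAK2 to the interferon gamma receptor, was the member whose 4 groups separated fully. Its levels were 113, 109.9, 110.1, 119 and 109 CPM in DMSO Ova, and 134, 126, 125, 126 and 129 CPM in DMSO IC. iBET Ova cells held 79.3, 71.0, 77.2, 81.5 and 73.4 CPM and iBET IC cells 102, 94.1, 94.2, 104 and 92.9 CPM. Every mouse followed the order iBET Ova, iBET IC, DMSO Ova, DMSO IC. iBET changed Ifngr2 by -0.55 on the log2 scale in Ova (SE 0.0510, 1.47-fold lower, adjusted p = 1.90e-08) and by -0.39 in IC (SE 0.0508, 1.31-fold lower, adjusted p = 1.98e-06). IC raised it by 0.19 in DMSO (SE 0.0507, 1.14-fold, adjusted p = 0.0129) and by 0.35 in iBET (SE 0.0510, 1.28-fold, adjusted p = 0.000157). The rise with IC in DMSO was not called without mouse C (adjusted p = 0.0615), without mouse E (0.0634) or under scaling by library totals alone (0.258). It did not pass in mice A and B (0.21, adjusted p = 0.251) or in mice C, D and E (0.18, 0.0518) alone, and IC in iBET was not called in mice A and B (0.40, 0.0655). The difference with iBET was -0.57 and -0.39 in mice A and B, against -0.50 and -0.35 in the other 3.

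The promoters of these 4 genes are shown because the paired chains of both receptors changed unequally with iBET, as their ratios show below. The sequences are the 250 bases before the RefSeq start on GRCm38.p6, 5′ to 3′ on the gene's strand. Capitals mark the letters GGGCGG or their reverse complement CCGCCC, the core of the GC box bound by SP1-type factors.
Ifnar1, chr16:91484965-91485214, + strand: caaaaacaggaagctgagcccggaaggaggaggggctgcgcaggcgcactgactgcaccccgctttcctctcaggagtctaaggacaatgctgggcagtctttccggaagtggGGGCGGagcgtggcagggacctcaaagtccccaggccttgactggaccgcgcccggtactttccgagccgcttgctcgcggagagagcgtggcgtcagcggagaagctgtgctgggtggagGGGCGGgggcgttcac
Ifnar2, chr16:91372533-91372782, + strand: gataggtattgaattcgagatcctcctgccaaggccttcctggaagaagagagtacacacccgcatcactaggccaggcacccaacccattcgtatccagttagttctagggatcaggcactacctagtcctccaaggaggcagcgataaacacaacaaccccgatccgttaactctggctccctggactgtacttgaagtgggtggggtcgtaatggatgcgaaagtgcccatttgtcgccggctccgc
Ifngr1, chr10:19591699-19591948, + strand: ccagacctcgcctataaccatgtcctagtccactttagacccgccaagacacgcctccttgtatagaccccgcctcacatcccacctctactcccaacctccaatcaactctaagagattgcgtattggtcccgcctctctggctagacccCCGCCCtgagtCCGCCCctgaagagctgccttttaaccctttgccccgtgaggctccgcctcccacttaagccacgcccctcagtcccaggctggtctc
Ifngr2, chr16:91546809-91547058, + strand: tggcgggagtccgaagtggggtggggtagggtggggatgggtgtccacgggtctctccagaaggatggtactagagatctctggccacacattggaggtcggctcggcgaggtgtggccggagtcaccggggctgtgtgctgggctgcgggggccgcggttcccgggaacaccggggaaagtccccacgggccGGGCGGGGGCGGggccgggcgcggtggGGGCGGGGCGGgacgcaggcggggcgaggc

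Ifngr2 held 4 such boxes between 57 and 25 bases before the start, Ifnar1 and Ifngr1 held 2 each, and Ifnar2 held 0. Of 32851 promoters of the same length, 32.7% held a GC box on either strand. The guanine plus cytosine content was 74.0% for Ifngr2, 65.6% for Ifnar1, 59.2% for Ifngr1 and 54.0% for Ifnar2, with a median of 52.4% over all promoters. The letters TTCNNNGAA, the STAT-binding GAS element, occurred once in Ifnar2, 214 bases before the start, and in 7.02% of all promoters. The NF-kB consensus occurred once in Ifngr2, 75 bases before the start, and in 3.90% of all promoters. These matches are descriptions of the letters. Of the members, 8 of 10 matched a promoter in the RefSeq set, of which these 4 are shown.

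Il10ra, the ligand-binding chain for the anti-inflammatory cytokine IL-10, fell with iBET under both stimuli. Levels in mice A to E were 119, 115, 141, 124 and 130.3 CPM in DMSO Ova against 91.3, 90.5, 96.0, 92.8 and 94.4 CPM in iBET Ova. With IC they were 102, 106, 123, 107 and 123 CPM in DMSO against 75.0, 80.4, 90.6, 79.0 and 75.3 CPM in iBET. The iBET values lay below every DMSO value of the same stimulus. The log2 changes were -0.44 in Ova (SE 0.0686, 1.36-fold lower, adjusted p = 1.91e-05) and -0.49 in IC (SE 0.0687, 1.40-fold lower, adjusted p = 5.29e-06), with 5 of 5 mice lower in each. IC against Ova gave -0.17 in DMSO (SE 0.0684, adjusted p = 0.0933, or 0.0109 with the mouse block, range over alternatives 0.00216 to 0.285) and -0.22 in iBET (SE 0.0687, adjusted p = 0.0459). The latter call did not hold without mouse A (adjusted p = 0.128), B (0.0938), D (0.168) or E (0.141), nor in mice A and B (0.195) or mice C, D and E (0.123) alone, and with the block it stood at 0.00264 (range over alternatives 0.000118 to 0.195).

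Il10rb, the second IL-10 chain, which also serves the IL-22 and lambda interferon receptors, was measured as a partner. It had 105, 107, 68.3, 72.8 and 76.0 CPM in DMSO Ova, 132, 124, 94.0, 96.7 and 95.9 in DMSO IC, 45.6, 49.6, 32.6, 33.8 and 29.9 in iBET Ova, and 63.4, 57.8, 45.4, 47.4 and 40.7 in iBET IC. As with Ifnar2, mice A and B lay above mice C, D and E in all 4 groups. It changed with iBET by -1.16 in Ova (SE 0.169, 2.24-fold lower, adjusted p = 8.10e-06) and by -1.09 in IC (SE 0.168, 2.13-fold lower, adjusted p = 1.59e-05). IC against Ova gave 0.34 in DMSO (adjusted p = 0.159) and 0.41 in iBET (0.119), and both passed with the block, at 5.57e-05 and 2.17e-05. Over the alternatives those 2 values ran from 1.60e-08 to 0.319 and from 2.31e-10 to 0.279.

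Il6ra, the chain that binds IL-6, was lower in iBET Ova and DMSO IC than in DMSO Ova. The 5 mice had 35.4, 60.0, 36.7, 51.8 and 41.4 CPM in DMSO Ova, 25.1, 30.8, 19.8, 28.5 and 24.8 CPM in DMSO IC, 26.4, 34.5, 24.2, 34.9 and 22.97 CPM in iBET Ova, and 19.4, 22.1, 17.2, 20.6 and 23.9 CPM in iBET IC. DMSO Ova lay above all other groups without overlap, though only narrowly above iBET Ova, and the other 3 overlapped with one another. IC changed Il6ra by -0.80 in DMSO (SE 0.157, 1.74-fold lower, adjusted p = 0.00135), and iBET changed it by -0.66 in Ova (SE 0.156, 1.57-fold lower, adjusted p = 0.00135). The first of these was -0.77 in mice A and B alone (adjusted p = 0.104) and -0.81 in the other 3 (0.00574). IC in iBET gave -0.47 (SE 0.158, adjusted p = 0.0578) and iBET in IC -0.32 (SE 0.158, adjusted p = 0.0887), neither of them called, and the interaction of iBET and stimulus was 0.33 (SE 0.222, adjusted p = 0.9999, or 0.290 with the block). The differences for IC in iBET and for iBET in IC passed with the mouse block, at 0.00111 and 0.00554, with ranges over the alternatives of 4.18e-05 to 0.238 and 0.00235 to 0.327.

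Il6st encodes gp130, the signalling chain shared by IL-6, IL-11, LIF and oncostatin M. It was at 265, 289, 221, 273 and 233 CPM in DMSO Ova and 228, 229, 173, 184 and 160.1 CPM in iBET Ova. With IC it was at 263, 238, 195, 218 and 214 CPM in DMSO and 191, 181, 163, 164 and 169.5 CPM in iBET. All 5 mice were lower with iBET under both stimuli, and the ranges were separate in IC only. The changes were -0.40 in Ova (SE 0.105, 1.32-fold lower, adjusted p = 0.00322) and -0.37 in IC (SE 0.105, 1.30-fold lower, adjusted p = 0.00496). In mice A and B they were -0.28 and -0.41, in the other 3 mice -0.45 and -0.31. IC against Ova gave -0.19 in DMSO (adjusted p = 0.228, or 0.0179 with the block, range over alternatives 0.00836 to 0.512) and -0.16 in iBET (adjusted p = 0.349).

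Il4ra, the chain shared by the IL-4 and IL-13 receptors, passed in no comparison. Its levels were 319, 268, 396, 324 and 338 CPM in DMSO Ova, 257, 252.4, 331, 286 and 324 in DMSO IC, 430.3, 354, 418, 319 and 364 in iBET Ova, and 298, 322, 386, 287 and 312 in iBET IC. All 4 groups overlapped. The log2 differences were 0.20 and 0.15 with iBET in Ova and IC (SE 0.111 each, adjusted p = 0.137 and 0.273) and -0.18 and -0.23 with IC in DMSO and iBET (SE 0.111 each, adjusted p = 0.269 and 0.185). With the mouse block the first and the last passed, at 0.0230 and 0.0249, with ranges over the alternatives of 0.0113 to 0.478 and 0.0110 to 0.518. The iBET difference in Ova was 0.42 in mice A and B (adjusted p = 0.0229) and 0.11 in mice C, D and E (0.478). Il13ra1, the chain that pairs with IL4RA for IL-13, fell with iBET from 62.9 to 36.4 CPM in Ova (-0.79, adjusted p = 2.73e-05) and from 59.6 to 37.7 CPM in IC (-0.66, adjusted p = 0.000182).

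Il2rg, the common gamma chain of the receptors for IL-2, IL-4, IL-7, IL-9, IL-15 and IL-21, was slightly higher with IC in DMSO. In DMSO Ova it was at 93.9, 83.8, 96.0, 94.9 and 85.6 CPM, and in DMSO IC at 124, 107, 96.6, 101 and 101 CPM. iBET Ova cells held 114, 105, 99.98, 101 and 86.9 CPM, and iBET IC cells 122, 114, 115, 118 and 111 CPM. The lowest DMSO IC value, in mouse C, was just above the highest DMSO Ova value. The IC difference in DMSO was 0.22 (SE 0.0736, 1.17-fold, adjusted p = 0.0400). It was not called without mouse A (adjusted p = 0.0884), B (0.129), D (0.0861) or E (0.0733), with no filter on low counts (0.0513), in a fit of the 10 libraries alone (0.0818), in mice A and B alone (0.0934), in mice C, D and E alone (0.195) or under scaling by library totals (0.267). The IC difference in iBET was 0.19 (adjusted p = 0.0929, or 0.0119 with the block). iBET against DMSO gave 0.16 in Ova (SE 0.0736, adjusted p = 0.0730, or 0.0195 with the block) and 0.13 in IC (SE 0.0735, adjusted p = 0.133, or 0.0376 with the block), and the latter also passed without mouse A, at 0.0370. Over the alternatives these 3 ran from 0.00326 to 0.561, from 0.0108 to 0.212 and from 0.0113 to 0.762. The iBET difference in Ova was 0.30 in mice A and B (adjusted p = 0.0485) and 0.11 in mice C, D and E, and in IC 0.05 and 0.23 (0.0113 in mice C, D and E). IC in iBET passed in mice C, D and E, at 0.0363.

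Il17ra, the chain shared by receptors of the IL-17 family, rose with iBET, and fell with IC in DMSO. Levels in mice A to E were 57.2, 53.1, 47.5, 43.9 and 43.3 CPM in DMSO Ova and 35.6, 39.2, 30.6, 29.4 and 33.1 CPM in DMSO IC. iBET Ova cells held 79.2, 67.5, 75.9, 63.6 and 67.2 CPM and iBET IC cells 67.5, 70.1, 65.3, 50.6 and 58.95 CPM. All DMSO IC values lay below all DMSO Ova values, and the iBET groups lay above the DMSO groups of the same stimulus, while the 2 iBET groups overlapped. iBET raised Il17ra by 0.53 in Ova (SE 0.101, 1.44-fold, adjusted p = 0.000177) and by 0.90 in IC (SE 0.102, 1.86-fold, adjusted p = 3.48e-07), in 5 of 5 mice. IC lowered it in DMSO, with a log2 change of -0.55 (SE 0.102, 1.46-fold lower, adjusted p = 0.000981), and differed by -0.18 in iBET (SE 0.101, adjusted p = 0.284, or 0.0311 with the block, range over alternatives 0.0282 to 0.691). The iBET rise was 0.41 and 0.90 in mice A and B, against 0.66 and 0.94 in the other 3. Il17rc, its partner for IL-17A, had at most 11 reads in any library and was not tested.

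Non-overlapping ranges of CPM gave a view free of the test's model, though not of the TMM scaling of the libraries. With iBET the ranges of 5 of 10 chains did not overlap in Ova (Ifnar1, Ifngr2, Il10ra, Il6ra and Il17ra), beside 38.0% of all tested genes, and 4 did not in IC (Ifngr2, Il10ra, Il6st and Il17ra), beside 42.8%. With IC the ranges of 6 chains did not overlap in DMSO (Ifnar1, Ifngr1, Ifngr2, Il2rg, Il6ra and Il17ra), beside 12.4%, and 2 did not in iBET (Ifnar1 and Ifngr2), beside 10.0%.

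Whether the iBET effect differed between the stimuli was tested directly by the interaction of iBET and stimulus. No chain passed in edgeR's quasi-likelihood test, in DESeq2's Wald test or in edgeR with the mouse block. At an unadjusted p under 0.05 there were 3, Ifngr1, Ifngr2 and Il17ra. Of all genes tested, 5 passed (0.0401%, of which 0.0241% higher and 0.016% lower), and 102 with the block (0.818%). For Il17ra the log2 change with iBET in IC minus that in Ova was 0.37 (SE 0.143, adjusted p = 0.982, or 0.0659 with the block), a larger rise in IC. For Ifngr1 it was 0.27 (SE 0.120, adjusted p with the block 0.0841), between -0.14 in Ova and 0.12 in IC. For Ifngr2 it was 0.16 (SE 0.0719, adjusted p with the block 0.256), a smaller fall in IC (-0.39) than in Ova (-0.55). Each of these terms was positive in 5 of 5 mice. DESeq2 with the mouse block called Il17ra (adjusted p = 0.0190) and Ifngr1 (0.0268), the lowest values over all alternatives, whose highest was 0.99999.

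The balance of the chains within 1 receptor was compared as the log2 ratio of their counts in the same library, a value that library scaling does not touch. Differences between groups of 5 were tested by exact two-sided permutation tests, with Benjamini-Hochberg adjustment over 20 tests (5 pairs of chains in 4 comparisons), and 8 passed. The smallest p that 5 against 5 libraries allow is 0.00794. Because the chains differ in length, the ratio itself is not a ratio of molecules, but its change between groups is free of length.

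The ratio Ifngr1 to Ifngr2 changed in all 4 comparisons. Its mean log2 value was 0.10 ± 0.13 in DMSO Ova, -0.43 ± 0.15 in DMSO IC, 0.51 ± 0.12 in iBET Ova and 0.09 ± 0.09 in iBET IC (SD, n = 5). iBET raised it by 0.41 in Ova and 0.51 in IC, and IC changed it by -0.52 in DMSO and -0.42 in iBET, with 5 of 5 mice in the same direction and exact p = 0.00794 (adjusted 0.0227) each time. The iBET IC and DMSO Ova groups thus came to nearly the same ratio. Ifnar1 to Ifnar2 rose with iBET by 0.42 in Ova and 0.32 in IC, from 0.78 ± 0.22 to 1.20 ± 0.14 and from 1.04 ± 0.14 to 1.36 ± 0.15 (exact p = 0.00794, adjusted 0.0227 for both). IC moved it by 0.27 in DMSO (exact p = 0.0635, adjusted 0.0977) and 0.17 in iBET (adjusted 0.149 from the exact permutation test).

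Il6ra to Il6st was lower with IC in DMSO, -3.13 ± 0.20 against -2.53 ± 0.24, a difference of -0.60 (exact p = 0.00794, adjusted 0.0227). Its 3 other differences were -0.31 with IC in iBET, -0.24 with iBET in Ova and 0.05 with iBET in IC, at adjusted 0.106, 0.187 and 0.732 in the exact test. Il4ra to Il2rg changed with IC in iBET by -0.43 (adjusted 0.0397) and differed by -0.40 with IC in DMSO (0.0926), while iBET moved it by 0.04 and 0.01 (0.760 and 0.889), all from exact permutation. Il10ra to Il10rb differed by 0.73 with iBET in Ova and 0.61 in IC but did not pass (adjusted 0.0529 and 0.0577 in the exact test). It was higher with iBET in 5 of 5 mice under both stimuli. The exact test does not pair the mice, and the SDs of 0.31 to 0.41 hold the gap between the 2 sets of mice. Flipping signs within mice, the smallest p that 5 pairs allow is 0.0625, so none of the 20 could pass, and with 1 mouse left out, where the smallest p is 0.0286, 0 passed.

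**Figure D3:**
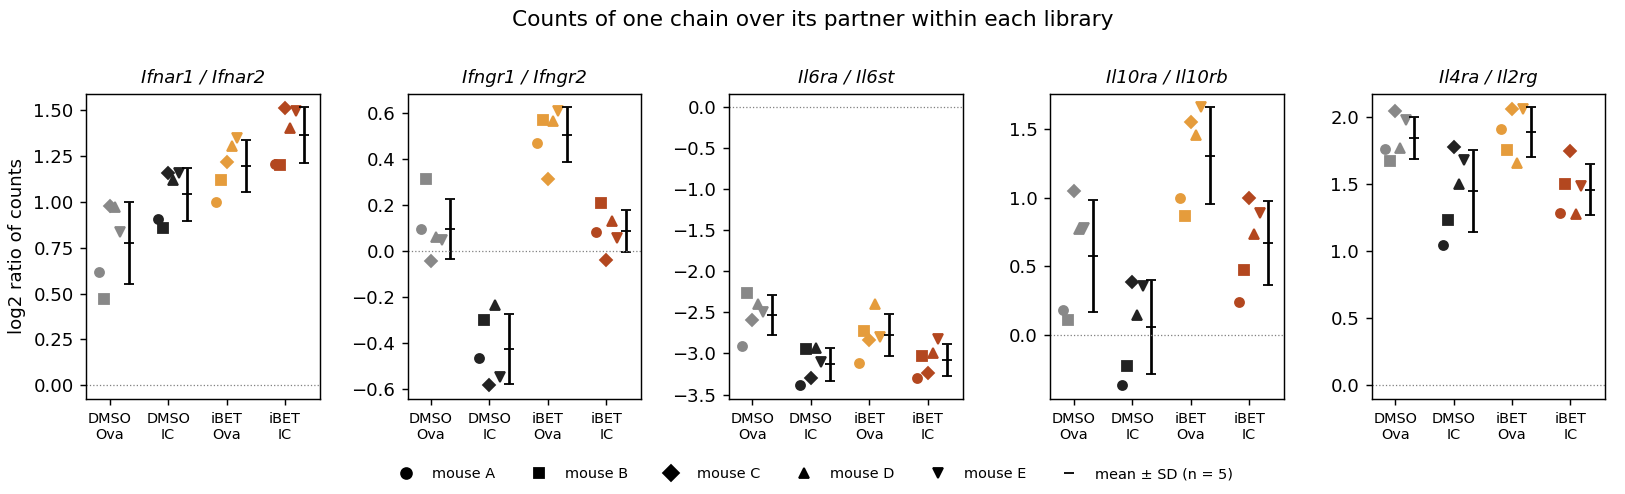
Log2 ratio of the counts of one chain over its partner within each library, by group, with 1 point per mouse and the mean ± SD of 5. The Ifngr1 to Ifngr2 ratio rises with iBET and falls with IC, and the Il10ra to Il10rb points show mice A and B apart.

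Ifnar2, Il10rb, Ifnar1 and Ifngr2 lie in 1 run on chromosome 16, all on the plus strand, in the GRCm38 assembly with GENCODE annotation. Ifnar2 spans 91372783 to 91405589, Il10rb 91406164 to 91425834, Ifnar1 91485238 to 91507441 and Ifngr2 91547072 to 91565623, a stretch of 192841 bp. Adjacent genes did not move alike. Ifnar1 rose with iBET by 0.19 and 0.14 while Il10rb on one side changed by -1.16 and -1.09 and Ifngr2 on the other by -0.55 and -0.39. The next gene past Ifngr2, Tmem50b, rose by 0.55 (adjusted p = 1.14e-06) and 0.41 (adjusted p = 4.37e-05), and Dnajc28 beyond it was at 4.91 CPM with differences of 0.09 and 0.11 that did not pass. Olig1 and Olig2 on the far side of Ifnar2 had 0 reads in all 20 libraries. The annotated gene Gm21970 overlaps both Ifnar2 and Il10rb on the same strand, whose ends are 574 bp apart. Gm21970 is not among the 24421 genes counted, so it holds no reads of its own here. Whether the overlap touched the counts of Ifnar2 or Il10rb was not tested. Ifnar2 and Il10rb are also the chains for which mice A and B lay above mice C, D and E in every group.

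**Figure D4:**
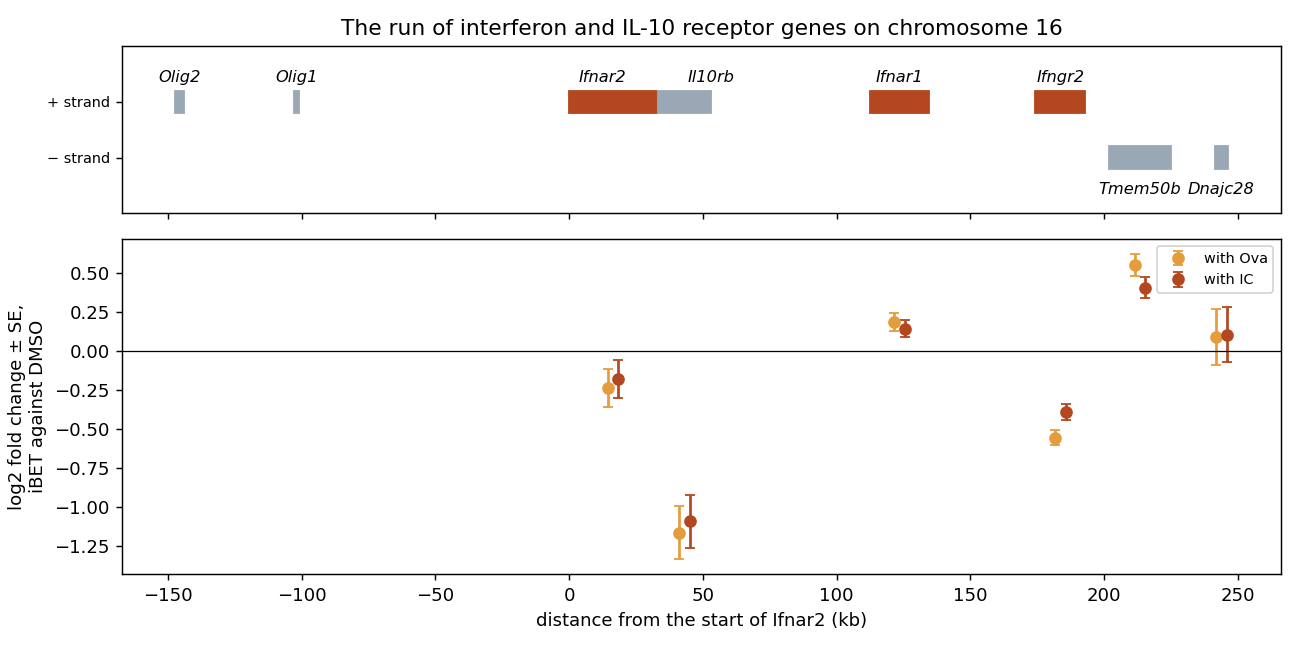
Genes of the chromosome 16 run by distance from the start of Ifnar2 in kb (top), and their log2 fold change ± standard error with iBET in Ova and in IC (bottom). Il10rb (-1.16 and -1.09) and Ifngr2 (-0.55 and -0.39) fall on either side of Ifnar1 (0.19 and 0.14), and Tmem50b rises next to Ifngr2.

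The other members lie on separate chromosomes of GRCm38. Ifngr1 spans 19591949 to 19610229 on chromosome 10, Il10ra 45253837 to 45269149 on chromosome 9, Il4ra 125552120 to 125579474 on chromosome 7 and Il2rg 101264378 to 101268255 on chromosome X. Il6ra spans 89864059 to 89913196 on chromosome 3, Il6st 112464070 to 112510086 on chromosome 13 and Il17ra 120463247 to 120487559 on chromosome 6. The counts cover each gene's exons with no split by isoform. Gm20489 overlaps the whole of Il2rg on the same strand, so reads there could be shared whatever the strand setting of the counting. Gm44876 and Gm42809 are annotated antisense to Il4ra and Il6ra, and the pseudogene Gm20612 lies within Il10ra on the opposite strand. Reads of these could be shared too, since the strand setting is not given in the sources used here. Whether any of these overlaps touched the counts was not tested.

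Per kilobase of exon, Il6ra was the lowest chain in DMSO Ova at 5.22 ± 1.22 CPM per kb (SD, n = 5) and Il17ra the next at 5.66 ± 0.693, 2 levels that did not differ beyond their spread. Ifnar1 (20.6 ± 1.19), Ifnar2 (21.6 ± 3.21) and Il6st (23.1 ± 2.54) formed a middle set whose ranges overlapped, followed by Ifngr2 at 29.8 ± 1.14. Il10ra (36.0 ± 2.89), Il2rg (38.1 ± 2.38) and Ifngr1 (42.3 ± 4.02) came next with each range overlapping its neighbour, and Il4ra was highest at 54.8 ± 7.68, its range overlapping only that of Ifngr1. In iBET IC, Il6ra held 2.39 CPM per kb and Il17ra 7.22, so these 2 chains, level with each other in DMSO Ova, lay apart there. By the longest annotated transcript in place of all exons, Ifnar1 came to 31.3, Il6st to 29.5, Ifngr1 to 57.0, Il2rg to 54.4 and Il4ra to 62.6 CPM per kb in DMSO Ova, and Ifnar1 then stood at place 5 from the top.

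The genes whose pattern over the 20 libraries was most like each chain's were found as the smallest root mean square difference of gene-centred log2 CPM, a measure that small variation as well as shared direction makes low. Il2rg had Dnajc5 (0.0656), Copz1 (0.0902) and Ifnar1 (0.0903) nearest, the only case in which another member was among the nearest 3. Ifnar1 had Ubap1 (0.0792), Smg8 (0.0817) and Txndc11 (0.0894). Ifngr2 was nearest to Nudt9 (0.0902), Ifngr1 to Irak4 (0.0980), Il10ra to Atic (0.0958), Il4ra to Shmt2 (0.0976), Il6st to Nr2c1 (0.103) and Il17ra to Pdlim7 (0.123). Ifnar2 had Fam96a, Mgat1 and Mocos between 0.0997 and 0.102. Il6ra had no near gene by this measure, the closest being Gm16845 at 0.210. Among the members themselves Il17ra and Ifngr2 lay farthest apart, at 0.693.

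Of 34 other cytokine receptor chains listed, 23 were abundant enough to test. Of these, Ifnlr1, Il12rb1 and Il23r reached the minimum of the low-count filter (10 reads in a library of median size, in 5 libraries) through the DMSO libraries only, so they could enter the test only where they were high. Their p-values are therefore not read as support for a fall. Of the other 20, 2 rose and 10 fell with iBET in Ova, and likewise in IC, beside 27.7% and 28.9% of all tested genes in Ova and 27.1% and 29.0% in IC. The median change of these 20 was -0.57 in Ova and -0.45 in IC. Ifnlr1, the binding chain for lambda interferon, changed by -4.18 in Ova (SE 0.450, adjusted p = 1.67e-07) and -4.09 in IC (adjusted p = 1.75e-07), from 5.04 ± 2.6 to 0.280 ± 0.13 CPM in Ova (29 reads over the 5 iBET Ova libraries). Il2ra, the high-affinity IL-2 chain, changed by -3.02 and -2.99 (adjusted p = 0.000594 and 0.000708), and Il7r, the IL-7 chain, by -2.76 and -2.84 (adjusted p = 2.95e-09 and 1.68e-09). Csf2rb, the beta chain through which GM-CSF signals, rose by 0.66 and 0.76 (adjusted p = 8.55e-07 and 1.17e-07) from 2713 to 4282 CPM in Ova. With IC the 20 chains had 2 higher and 2 lower in DMSO (9.59% and 10.7% of all tested genes) and 2 higher and 1 lower in iBET (5.19% and 6.63%). With the mouse block all 23 had 4 higher and 3 lower in DMSO (18.3% and 19.8% of all genes), and 6 and 3 in iBET (14.2% and 14.7%).

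**Figure D5:**
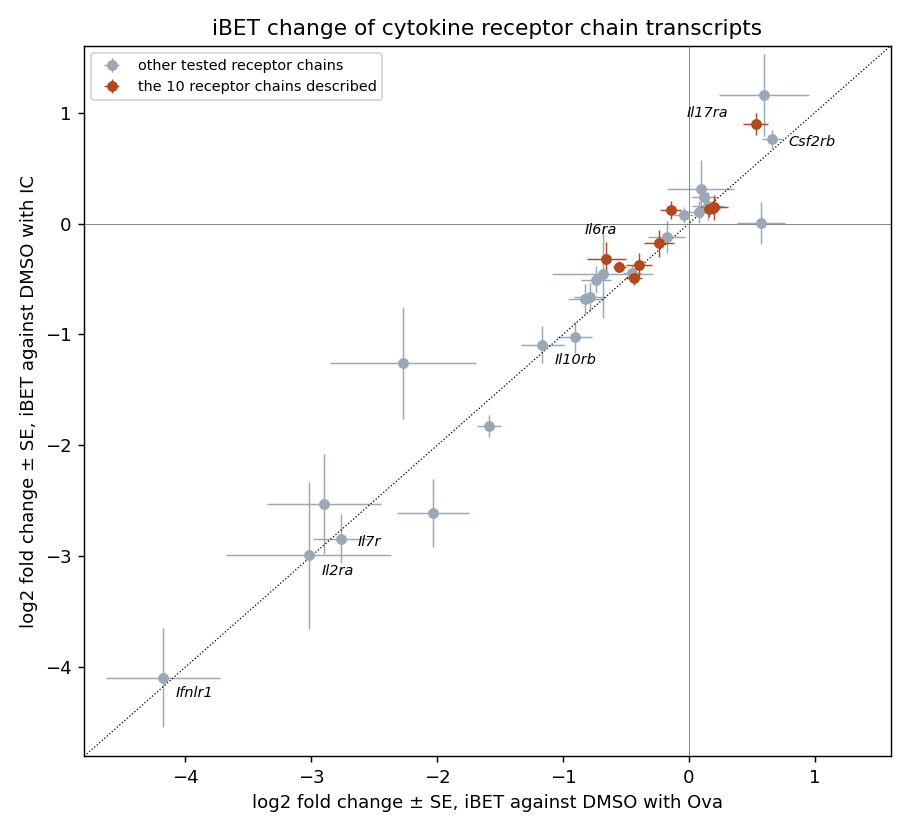
Log2 fold change ± standard error with iBET in Ova (x axis) against IC (y axis) for the 10 members and the 23 other receptor chains tested; the 2 comparisons use different libraries of the same 5 mice. Members lie between -0.66 and 0.90, while other chains reach -3.02 (Il2ra). Ifnlr1 lies at -4.18, but Ifnlr1, Il12rb1 and Il23r passed the low-count filter through the DMSO libraries only.

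Behind the receptors, kinases, STATs and adaptors had 3 higher and 9 lower of 18 with iBET in Ova (27.7% and 28.9% of all tested genes) and 3 higher and 10 lower in IC (27.1% and 29.0%), at medians of -0.40 and -0.37. With the mouse block there were 4 higher and 11 lower (33.5% and 35.2% of all genes), and 5 and 12 (32.6% and 35.4%). Stat6, which transmits the IL-4 signal, changed by -0.96 (SE 0.0592, adjusted p = 7.56e-11) and -1.02 (adjusted p = 3.25e-11). Stat4 changed by -2.50 and -2.38 (adjusted p = 0.00208 and 0.00301), and Jak2 by -1.02 and -1.0 (adjusted p = 0.0127 and 0.0145). Jak1 rose by 0.17 and 0.19 (adjusted p = 0.0456 and 0.0215), Map3k7, the kinase TAK1, by 0.20 in both (0.00253 and 0.00245), and Irs2, an adaptor of the IL-4 receptor, by 0.73 and 0.88 (2.69e-05 and 3.17e-06). The call of Jak2 in Ova was lost without mouse D (adjusted p = 0.0505) or E (0.0583), and in IC without mouse D (0.0551). That of Jak1 was lost in Ova without mouse A, B, C or D (0.0919 to 0.113) and in IC without C, D or E (0.0652 to 0.0946). It was also lost under scaling by library totals (0.210 in Ova, 0.112 in IC) and, in Ova, in a fit of the 10 libraries alone (0.0938). In mice C, D and E alone the Jak1 difference in Ova was 0.14 (0.121). In mice A and B alone the Jak1 difference in IC was 0.05 (0.705). Map3k7 was not called in mice A and B alone, at 0.22 in Ova (0.0989) and 0.16 in IC (0.216). With IC 3 of the list rose and 1 fell in DMSO (9.59% and 10.7% of all tested genes), and 2 rose and 0 fell in iBET (5.19% and 6.63%). With the block 3 rose and 2 fell in iBET (14.2% and 14.7%).

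Inhibitors and receptor turnover genes went both ways with iBET, 8 higher and 5 lower of 24 in Ova and 8 higher and 7 lower in IC, at medians of 0.15 and 0.08, shares near the 27.7% and 28.9%, and 27.1% and 29.0%, of all tested genes. With the mouse block there were 11 higher and 6 lower in Ova (33.5% and 35.2% of all genes) and 9 higher and 10 lower in IC (32.6% and 35.4%). Socs3, which blocks signalling from gp130, rose by 1.36 and 1.33 (adjusted p = 0.00544 and 0.00604), Socs7 by 1.07 and 1.08 (1.81e-11 and 1.65e-11) and Pias3, an inhibitor of STAT3, by 0.55 and 0.67 (0.00166 and 0.000321). Usp18, which restrains IFNAR2 signalling, changed by -2.35 and -2.24 (1.43e-09 and 2.14e-09), Ptpn6, the phosphatase SHP-1, by -1.25 and -1.31 (2.95e-10 and 1.51e-10), and Socs2 by -0.51 and -0.61 (0.0159 and 0.00456). The first of the Socs2 calls was lost without mouse D (0.0591) or E (0.0695). It was also lost in mice A and B alone (0.108), as were both Socs3 calls (0.0670 and 0.0912). IC changed 5 upward and 3 downward in DMSO (9.59% and 10.7% of all tested genes) and 2 each way in iBET (5.19% and 6.63%). With the block it changed 6 and 5 in DMSO (18.3% and 19.8%), and 5 and 4 in iBET (14.2% and 14.7%). Isg15 and Usp18 stand in this list and in that of type I interferon targets.

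Few ligands were measurable. Of 20 listed, 6 were tested, and Il4, Il7 and Lif passed the low-count filter through the DMSO libraries only, so they entered the test only where they were high. The p-values of Il4, Il7 and Lif are not read as support for a fall. Of the other 3, 0 rose and 2 fell with iBET in Ova (27.7% and 28.9% of all tested genes), and 1 rose and 2 fell in IC (27.1% and 29.0%). Of all 6, IC called 0 in either treatment, beside 20.3% of all tested genes in DMSO and 11.8% in iBET. At an unadjusted p under 0.05 there was 1 in DMSO and 0 in iBET. DESeq2 called 1 and 0 (22.8% and 14.4% of all genes), and the mouse block 2 and 1 (38.1% and 28.9%). Il6 changed by -3.18 and -2.96 (adjusted p = 5.79e-09 and 6.79e-09) from 5.03 to 0.556 CPM in Ova, and, of those that passed through DMSO only, Lif by -2.16 and -1.88 (0.000352 and 0.000435) and Il7 by -2.02 and -1.38 (3.21e-05 and 0.00235). In mice A and B alone, Lif in Ova (adjusted p = 0.0772) and Il7 in IC (0.102) were not called. Ifng, Ifna1, Ifna4, Ifna5, Il17a and Il21 had 0 reads, Ifnb1 3 and Il10 4 reads over all 20 libraries, so the transcripts of most ligands of the chains described here were at or under what this depth can show.

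Among known target genes, 11 of type I interferon were tested, of which Ifit1, Ifit3 and Oasl1 reached the filter's minimum in 0 iBET libraries and entered the test through DMSO. Of the other 8, 0 rose and 4 fell with iBET in Ova and 0 and 5 in IC, at medians of -1.06 and -1.37. Of all tested genes 27.7% rose and 28.9% fell in Ova, and 27.1% and 29.0% in IC. IC raised 3 of the 8 in DMSO and 1 in iBET, beside 9.59% and 5.19% of all tested genes. The levels of the 3 were low, with Ifit1 at 1.08 ± 0.54 CPM in DMSO Ova, 3.25 ± 1.3 in DMSO IC, 0.237 ± 0.15 in iBET Ova and 0.270 ± 0.13 in iBET IC. Ifit3 changed with iBET by -3.05 and -4.26 (adjusted p = 1.08e-06 and 4.71e-09), Ifit1 by -2.17 and -3.53 (0.000411 and 6.49e-07) and Oasl1 by -2.83 and -2.54 (5.28e-05 and 2.08e-05). These falls rest on 10 reads of Ifit3, 26 to 31 of Ifit1 and 10 to 24 of Oasl1 over the 5 libraries of each iBET group, so the sizes of the folds are uncertain. The 3 genes could be tested only where they were high, so their p-values are not read as support for a fall. Interferon gamma targets had 4 lower of 5 tested in both, beside 28.9% and 29.0% of all tested genes. Ciita, the activator of MHC class II genes, stood at -4.99 and -5.51 (1.57e-07 and 6.68e-08) and Gbp2 at -0.97 and -0.60 (0.00197 and 0.0404). The Gbp2 call in IC was lost without mouse A (0.0644), C (0.135) or E (0.124).

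Of 6 IL-4 targets only Arg1, arginase 1, was called with iBET, by -1.72 and -1.85 (adjusted p = 2.34e-05 and 1.05e-05), beside 56.6% and 56.1% of all tested genes. The list's medians were -0.17 and -0.19. The block called 1 higher and 3 lower in both, beside 33.5% and 35.2% of all genes in Ova and 32.6% and 35.4% in IC. IC raised 1 IL-4 target in DMSO and 0 in iBET, beside 9.59% and 5.19% of all tested genes. In iBET 1 had an unadjusted p under 0.05 and DESeq2 called 0. With the block IC raised 4 and 3, beside 18.3% and 14.2%. Of 5 targets of IL-6 and IL-10, a list that holds Il4ra and Socs3, 1 rose and 3 fell under both stimuli, at medians of -0.59 and -0.67. The shares of all tested genes were 27.7% and 28.9% in Ova and 27.1% and 29.0% in IC. Bcl3 changed by -2.55 and -2.69 (1.76e-08 and 7.24e-09), Sbno2 by -1.36 in both (1.68e-11 and 1.74e-11) and Etv3 by -0.59 and -0.67 (0.0269 and 0.0123), while Socs3 was the one that rose. The Etv3 call was lost in Ova without mouse C (0.118), D (0.0815) or E (0.0831) and in IC without E (0.0506). In mice A and B alone the difference of Etv3 in Ova was -0.23 and was not called (0.0640). IC against Ova called 0 targets of interferon gamma or of IL-6 and IL-10 in either treatment by edgeR or DESeq2. By edgeR 20.3% of all tested genes were called in DMSO and 11.8% in iBET. At an unadjusted p under 0.05 there was 1, a target of IL-6 and IL-10 in iBET. With the mouse block there were 1 interferon gamma target in iBET, and 3 targets of IL-6 and IL-10 in DMSO and 2 in iBET. The block called 38.1% of all tested genes in DMSO and 28.9% in iBET.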

How the data were processed

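Bulk RNA-seq of 20 BMDC libraries was used, 5 mice in 4 groups. Per the labels and the study's methods, cells were lysed after 4 hours and libraries made with a SMARTer low-input kit. The submitters' processing notes name CASAVA, FastQC, Trim Galore, HISAT2 and featureCounts on mm10, with no versions. The deposited table used here holds raw read counts per gene that the authors made with featureCounts, and a second deposited table holds the same genes as normalized signal, each count divided by a factor per library, which served as an alternative. Labels say that iBET was added together with the stimulus, while the methods give iBET first, and the labels alone speak of sorted cells.

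Genes were filtered with filterByExpr, scaled by TMM and fitted with edgeR 4.0.16 (R 4.3.3) as 1 quasi-likelihood model over 4 groups, with Benjamini-Hochberg adjustment and a threshold of 0.05. DESeq2 1.42.0, limma 3.58.1 and sva 3.50.0 gave alternatives. The main model has no mouse block. Labels tie each replicate number to 1 mouse, so the numbers pair the samples, and residuals of same-mouse libraries correlated by 0.524 on average (0.307 to 0.675 over 30 pairs). The replicate is the mouse. The code was tested on simulated data.

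Members and gene lists were chosen with earlier results of these data known. Named were all 10 members, their partner chains, up to 3 genes rising and 3 falling most per list among those called in both iBET comparisons, the 3 genes nearest to each member, and the neighbours on chromosome 16. A gene that this rule names among the interferon gamma targets is not reported here. Positions come from GENCODE annotation of GRCm38 and promoters from RefSeq.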

Additional observations from a re-analysis of the deposited data

Results flagged for a closer look

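The difference of Ifngr1 between iBET and DMSO had opposite signs in the 2 stimuli, -0.14 with Ova and 0.12 with IC, and the gap between them was 0.27 on the log2 scale (SE 0.120), positive in 5 of 5 mice. It did not pass as an interaction in edgeR's quasi-likelihood test (adjusted p = 0.9999, or 0.0841 with the mouse block) and passed in DESeq2 with the mouse block (0.0268). In 40 groups of 5 libraries (10 members in 4 groups), 0 held a library far enough from the rest to be singled out by Dixon's criterion, where chance gives about 1 in 20.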

How the results depend on the processing

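Over the alternatives to each member's 5 tests, 687 values kept direction and side of the threshold, 61 passed that had not, 32 no longer passed and 10 changed sign. The share of all genes called the same way stands in parentheses. With the replicate block (mouse), chains higher and lower with iBET were 4 (33.5%) and 6 (35.2%) in Ova, from 2 and 4 without it, and 4 (32.6%) and 5 (35.4%) in IC, from 2 and 3. With IC they were 3 (18.3%) and 5 (19.8%) in DMSO, from 3 and 3, and 4 (14.2%) and 4 (14.7%) in iBET, from 2 and 1. DESeq2 with the block gave 4 higher with iBET in Ova (33.3%), 4 (32.6%) and 5 (34.3%) in IC, 6 lower with IC in DMSO (19.0%), 4 (15.3%) and 5 (14.8%) with IC in iBET, and 2 interactions (1.54%). Surrogate variables gave 4 higher with iBET in Ova (34.7%), 5 lower in IC (35.0%), and 4 higher (12.0%) and 2 lower (12.9%) with IC in iBET. DESeq2 gave 2 lower (7.57%), and no low-count filter 0 lower (3.6%), with IC in iBET. Library totals as the scale gave 1 higher with iBET in IC (23.9%), 1 higher (4.67%) and 5 lower (20.8%) with IC in DMSO and 3 lower with IC in iBET (16.3%). Mice A and B alone gave 1 higher with iBET in IC (20.4%), 1 higher (2.21%) and 1 lower (1.79%) with IC in DMSO, and 0 higher (1.45%) and 0 lower (0.921%) with IC in iBET, while mice C, D and E alone gave 1 higher with IC in DMSO (14.8%) and 0 lower with IC in iBET (4.95%). At a log2 change of at least 1, 0 chains were left anywhere. Leaving out each mouse in turn gave 1 to 3 higher with iBET in IC, 1 to 2 higher with IC in DMSO and 0 to 1 lower with IC in iBET.

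Signs changed for Ifnar2 with IC in DMSO on library totals (-0.0032), Ifngr1 with IC in iBET in mice A and B (0.022), and interactions near 0: Il4ra (0.0083) and Il6st (-0.011) with surrogate variables, Il6st in mice A and B (-0.13) and Il2rg in mice C, D and E (0.13). With single mice left out, the interaction ran from -0.082 to 0.052 for Il2rg (above 0 without mouse A or B) and from -0.019 to 0.10 for Il6st (below 0 without D or E), and with iBET in IC the ratio Il6ra to Il6st from -0.0022 (without E) to 0.089 and Il4ra to Il2rg from -0.052 (without A or B) to 0.070. The 8 ratios that passed were 0 within mice and 0 with any mouse left out, in designs whose smallest p is 0.0625 and 0.0286. The cause of the other changes was not tested. In DMSO Ova, levels per kb moved by more than 1 SD for 5 members with the longest transcript.

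With 5 mice per group, chains changing by about 0.1 to 0.2 log2 sit near the threshold, and calls there depend on single mice. The 14 untested ligands and Il17rc were too sparse at this depth for a change to be seen. The 2 sets of mice and any handling they shared cannot be told apart.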
